A study of Mus musculus with 4 samples.

Results

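The genes described here fold proteins in the endoplasmic reticulum (ER), degrade those that fail to fold, or sense the failure. They were taken by symbol from a list of 40 genes covering ER stress sensors and their transcription factors, chaperones, disulfide enzymes, the translocon and ER degradation, and all 40 were present among the 25239 genes listed. RNA was sequenced from granulosa cells (GCs), the follicle cells that nurse the oocyte, which were taken from wild-type C57BL/6 mice (female, postnatal day 24) and grown in culture. By the study's methods these were mural GCs of large antral follicles after gonadotropin priming. There were 2 control libraries and 2 libraries from cells given HDACi 4b, which inhibits the histone deacetylases HDAC1 and HDAC3, and no group carried a modified allele. The labels give no dose, duration or vehicle for these libraries, and they do not say whether a group's libraries came from separate cultures or mice, so the p-values measure only the spread between libraries, which may be technical. Since HDACi 4b inhibits both enzymes, their effects cannot be told apart here. The comparison asked how these transcripts differed between control and treated GCs.

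Secreted and membrane proteins enter the ER through the SEC61 channel, receive sugars and disulfide bonds, and are held by chaperones until they fold. Proteins that stay misfolded are drawn back to the cytosol and destroyed by the proteasome, a route called ER-associated degradation. When unfolded proteins accumulate, the sensors IRE1, PERK and ATF6 start the unfolded protein response, which raises chaperone and degradation genes and slows translation. GCs secrete inhibins and extracellular matrix, which pass through this machinery. The files hold gene-level RNA only, so the splicing of Xbp1, the cleavage of ATF6 and the phosphorylation of PERK, which mark an active response, were not measured.

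HDACi 4b did not move these genes as 1 block. Levels were in FPKM, which divides a gene's reads by its length and by the depth of the library, and differences were tested on log2(FPKM + 1) with limma across 12054 genes, where a call means a Benjamini-Hochberg adjusted p under 0.05. All 40 genes passed the filter of a mean of at least 1 FPKM. Of them 11 rose, 10 fell and 19 were not called, that is 52.5% called, against 60.5% of all genes tested (22.4% higher and 38.1% lower). The sharpest change was the fall of Derl3, a derlin of the ER membrane, to a mean 24.7-fold below that of controls. The co-chaperone gene Sdf2l1 had a log2 difference of at least 1 and Herpud1 and Derl3 fell by more than 1, so that 1 gene was higher and 2 lower by this stricter rule, whose shares among all genes were 7.54% higher and 6.7% lower. Sdf2l1 lay at that limit, and its difference was 0.57 without control replicate 2 and 0.98 without HDACi 4b replicate 1. For 27 of the 40 genes the control and treated values did not overlap, against 83.1% of all genes. The median difference was 0.02 over these genes and -0.15 over all genes tested.

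The deposited scale puts more genes below 0 than above, and median-ratio scaling of the libraries shifted differences by a median of 0.15. After it, 13 of the 40 genes were called higher and 6 lower. Of all genes tested 56.7% were then called, and 51.6% of those calls were higher in place of 37.0%. Atf6b, Hsp90b1, Pdia3 and Sel1l were lower on the deposited scale and not called after rescaling. Eif2ak3 and Edem2 were called higher after rescaling only. In the fit on the deposited values and in every alternative that tested them, 8 genes were called: Derl3, Herpud1, Creb3l1 and Crebrf as lower, and Edem1, Ero1l, P4hb and Ern1 as higher. That was all 10 alternatives but for Crebrf, which the filter of 5 FPKM left out. How many of all genes tested kept their calls in this way was not counted, so the 8 cannot be read against them. Exons of 12 of the 40 genes overlap another gene, among them Hsp90b1, Pdia3, Pdia4, Eif2ak3, Creb3 and Derl2, and reads of such overlaps cannot be told apart here.

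**Figure D1:**
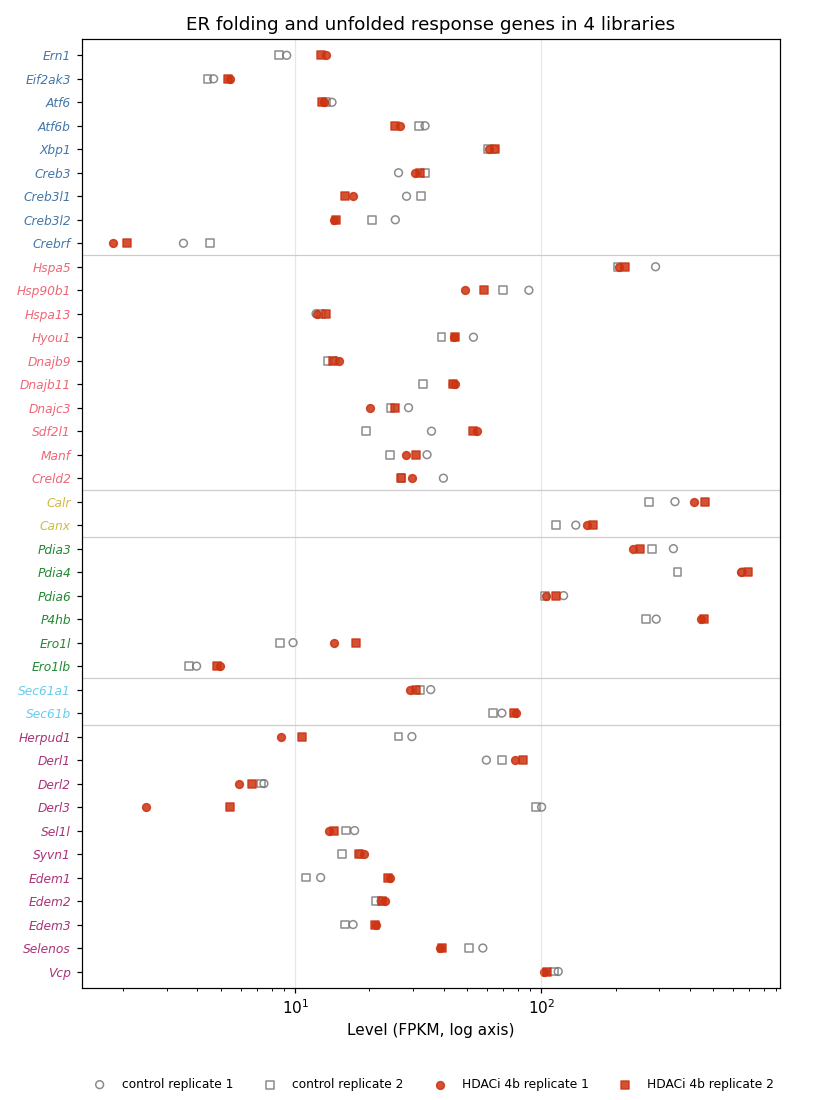
FPKM on a log axis for each of the 40 genes in each library, ordered by role from sensors at the top to ER degradation at the bottom. Open symbols are the 2 controls and filled symbols the 2 treated libraries; Derl3 sits near 100 FPKM in controls and between 2.48 and 5.44 FPKM after treatment.

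Some promoters of these genes hold an element known from the unfolded protein response, which was not used to draw up the list but was first described in genes of this kind, Hspa5, Hsp90b1 and Calr among them. This ER stress response element (ERSE), which ATF6 is known to bind together with the CCAAT factor NF-Y, reads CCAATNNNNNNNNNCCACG, and its shorter relative ERSE-II reads ATTGGNCCACG. Both were searched on both strands in RefSeq promoter windows (build GRCm38.p6) of 250 bases before to 50 bases after each gene's start. Windows were found for 33 of the 40 genes, with Ero1l and Ero1lb matched by their RefSeq symbols Ero1a and Ero1b. An ERSE was present for 10 of the 33 genes (30.3%), against 39 of 32851 windows of all genes (0.119%), and an ERSE-II for 2 (6.06%), Herpud1 and Dnajb11, against 0.0365%. The letters TGACGTGG, the core of the unfolded protein response element that XBP1 is known to bind, were present in the window of Vcp only (3.03% of the 33, against 0.676% of all windows). The reverse complement of those letters begins with the CCACG of the ERSE, but none of the 33 windows searched held both. A match is a description of letters and not a measured binding site.

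The elements are printed so that genes that rose, fell or were not called can be compared letter by letter. The ERSE-II of Dnajb11, a gene not called, begins after the gene's start and is not printed. Each is given on the strand of its gene, 5′ to 3′, with 10 flanking bases on either side and the fixed letters in capitals, and an element on the opposite strand reads CGTGG, a gap of 9 bases, then ATTGG.
Derl3: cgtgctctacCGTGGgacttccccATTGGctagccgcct
Hsp90b1: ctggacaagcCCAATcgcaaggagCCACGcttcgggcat
Hspa5: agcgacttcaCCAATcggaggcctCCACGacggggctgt
Dnajc3: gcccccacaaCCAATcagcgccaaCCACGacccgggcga
Creld2: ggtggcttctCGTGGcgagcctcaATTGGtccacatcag
Pdia6: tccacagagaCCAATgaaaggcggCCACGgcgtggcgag
Syvn1: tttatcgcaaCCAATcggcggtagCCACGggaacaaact
Ero1lb: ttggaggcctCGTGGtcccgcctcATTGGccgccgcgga
Canx: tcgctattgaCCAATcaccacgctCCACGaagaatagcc
Calr: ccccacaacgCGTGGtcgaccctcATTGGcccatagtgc
Herpud1 (ERSE-II): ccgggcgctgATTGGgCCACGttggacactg
Hsp90b1 held a second ERSE on the opposite strand. The ERSE began 44 bases before the start in Syvn1, 65 in Hspa5, 156 in Derl3 and 162 in Calr, and the ERSE-II of Herpud1 began 52 bases before it. Of the 12 genes with an ERSE or ERSE-II, 3 rose (Calr, Canx and Ero1lb), 3 fell (Derl3, Herpud1 and Hsp90b1) and 6 were not called, with a median difference of -0.12. Of all genes tested 22.4% rose and 38.1% fell, and no difference between these 12 genes and the rest was tested.

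The full windows of 3 of these genes are shown because their promoters hold the same element while their levels fell, stayed uncalled and rose, in that order.
Derl3, chr10:75893148-75893447, plus strand: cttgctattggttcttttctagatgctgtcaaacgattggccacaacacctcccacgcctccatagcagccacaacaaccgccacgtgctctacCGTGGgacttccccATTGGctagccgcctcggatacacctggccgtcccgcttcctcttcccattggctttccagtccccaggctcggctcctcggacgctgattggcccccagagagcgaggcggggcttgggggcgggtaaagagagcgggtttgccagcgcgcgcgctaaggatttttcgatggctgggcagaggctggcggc
Hspa5, chr2:34771840-34772139, plus strand: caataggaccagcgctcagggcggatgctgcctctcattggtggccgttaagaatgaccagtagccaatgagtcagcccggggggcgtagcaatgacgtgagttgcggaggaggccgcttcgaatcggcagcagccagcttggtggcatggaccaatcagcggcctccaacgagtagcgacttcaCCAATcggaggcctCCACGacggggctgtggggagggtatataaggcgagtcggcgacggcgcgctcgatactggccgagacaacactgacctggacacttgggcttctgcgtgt
Calr, chr8:84846882-84847181, minus strand: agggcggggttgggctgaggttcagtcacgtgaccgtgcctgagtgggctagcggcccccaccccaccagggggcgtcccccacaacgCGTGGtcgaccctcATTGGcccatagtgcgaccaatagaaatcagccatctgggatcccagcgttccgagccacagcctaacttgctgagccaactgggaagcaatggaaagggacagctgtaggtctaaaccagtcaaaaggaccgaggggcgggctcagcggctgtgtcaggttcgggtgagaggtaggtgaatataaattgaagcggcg
The capitals again mark the fixed letters of the ERSE.

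**Figure D2:**
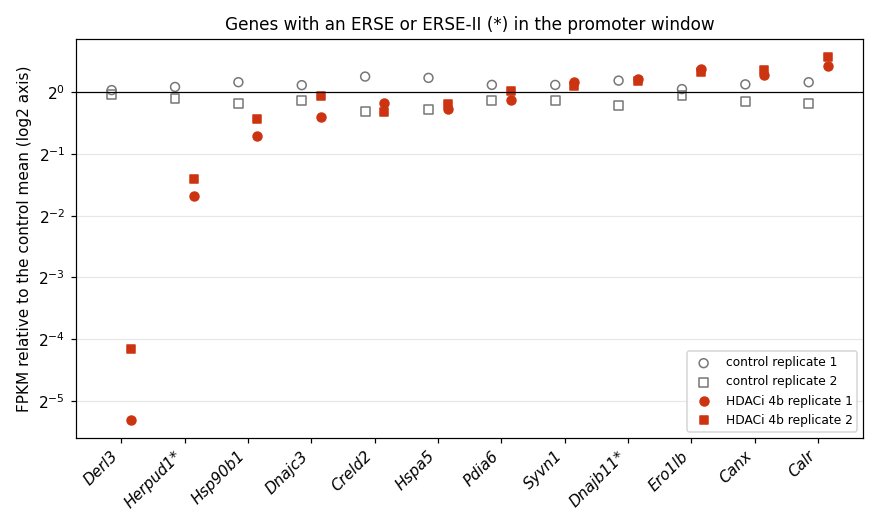
FPKM of the 12 genes with an ERSE or ERSE-II (asterisk) in the promoter window, divided by the gene's control mean, on a log2 axis and ordered by their difference. Open symbols are controls and filled symbols treated libraries; Derl3 and Herpud1 fall far below 1 while Calr and Canx lie above both controls, and control replicate 1 is above control replicate 2 for all 12 genes.

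Among the degradation genes the derlins went 3 ways. Derlins are ER membrane proteins that help draw misfolded proteins out to the cytosol. Derl3 was at 100.2 and 95.2 FPKM in controls and at 2.48 and 5.44 FPKM in treated libraries. Controls and treated libraries stood far apart, and the pair of treated libraries differed from each other more in proportion than the controls did. Its difference was -4.38 ± 0.31 (SE) on the log2 scale (limma, adjusted p = 0.000728, range over the 10 alternatives 7.28e-05 to 0.00513), and the reads behind it were 6633 in controls and 253 in treated libraries. Derl1 was higher after treatment, at 59.7 and 69.0 FPKM in controls and 78.2 and 84.2 FPKM in treated libraries, a call lost without control replicate 1, without either treated library and without the filter on low values (adjusted p of 0.0665, 0.0834, 0.149 and 0.0668). Derl2 lay between 5.92 and 7.45 FPKM in all libraries and was not called (adjusted p = 0.0872, and 0.0497 with limma-voom on recovered reads). In controls Derl3 was thus the most abundant derlin transcript per length, and in both treated libraries it was the least abundant.

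Herpud1 fell with Derl3. Its product, HERP, sits in the ER membrane and links derlins to the HRD1 ubiquitin ligase. Herpud1 was at 29.8 and 26.3 FPKM in controls and at 8.75 and 10.6 FPKM in treated libraries, a 2.89-fold fall (-1.44 ± 0.11, adjusted p = 0.000523). The HRD1 ligase itself, Syvn1, had 18.4 and 15.4 FPKM in controls and 18.9 and 18.1 FPKM in treated libraries and was not called. Its partner Sel1l differed by -0.24 ± 0.07, a call lost in 5 of 10 alternatives, with an adjusted p of up to 0.36. Selenos, which recruits the p97 ATPase to the membrane, was at 57.8 and 50.8 FPKM in controls and 38.5 and 39.6 FPKM in treated libraries, and its call was lost without HDACi 4b replicate 1 (adjusted p = 0.0555). The p97 gene Vcp lay between 102.7 and 117.0 FPKM throughout and was not called.

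The EDEM genes, whose products trim mannose from misfolded glycoproteins and so mark them for disposal, leaned the other way. Edem1 was at 12.7 and 11.1 FPKM in controls and 24.3 and 23.9 FPKM in treated libraries. The groups were clearly separate and the rise was 2.03-fold (0.97 ± 0.08, adjusted p = 0.000621). Edem3 rose less, from a mean of 16.5 to 21.2 FPKM, and was not called when a treated library was left out (adjusted p of 0.0692 and 0.0613). Edem2 had means of 21.8 and 22.8 FPKM and was not called on the deposited scale. Of the 11 degradation genes, 3 rose, 4 fell and 4 were not called. That is 63.6% called, near the 60.5% of all genes tested (22.4% higher and 38.1% lower). The summed level of the 11 genes was 459.8 and 440.7 FPKM in controls and 337.8 and 351.2 FPKM in treated libraries. Most of that difference was Derl3, since the other 10 genes summed to 359.6 and 345.6 FPKM in controls and 335.3 and 345.8 FPKM in treated libraries.

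**Figure D3:**
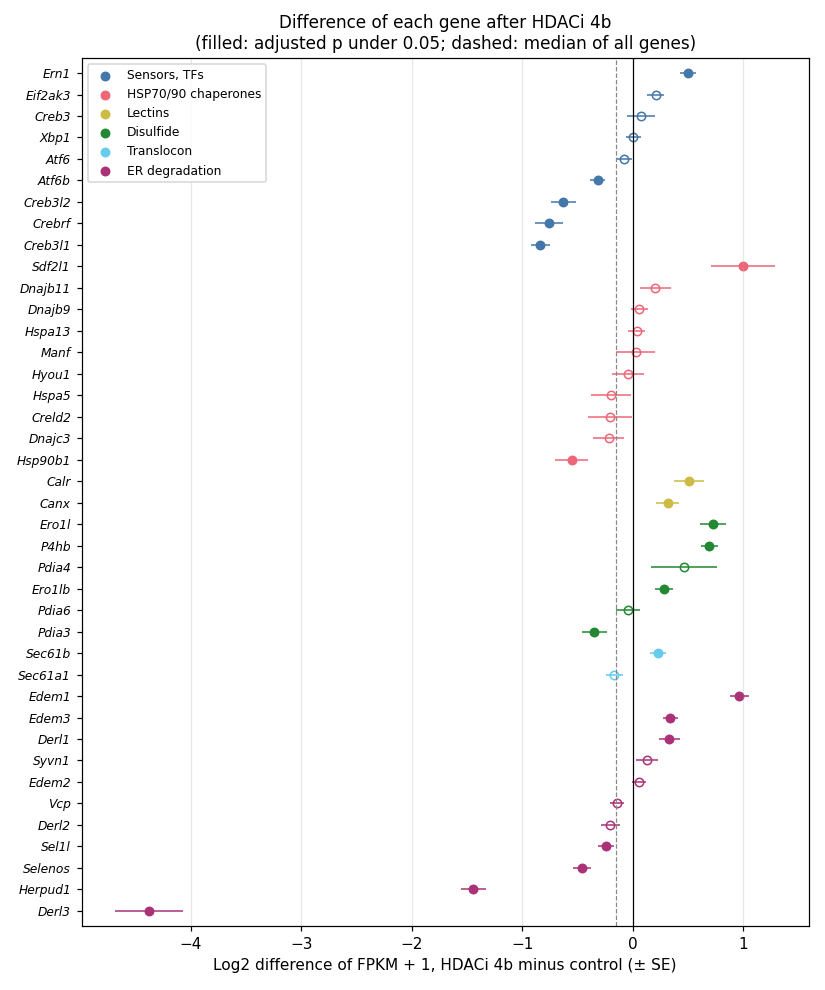
Log2 difference of FPKM + 1 (HDACi 4b minus control) with its SE for the 40 genes, coloured by role. Filled points passed an adjusted p of 0.05, the dashed line is the median of all genes tested (-0.15), and Derl3 and Herpud1 lie far to the left while Sdf2l1 and Edem1 lie farthest to the right.

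Of the 6 disulfide genes, 3 rose, 1 fell and 2 were not called, that is 66.7% called against 60.5% of all genes tested. Protein disulfide isomerases form and reshuffle disulfide bonds, and the ERO1 oxidases recharge them. P4hb, the founding isomerase, was at 292.7 and 265.2 FPKM in controls and 446.4 and 455.8 FPKM in treated libraries. Both treated values lay well above both controls, a 1.62-fold rise (0.69 ± 0.08, adjusted p = 0.00124). The oxidase gene Ero1l was at 9.79 and 8.63 FPKM in controls and 14.3 and 17.6 FPKM in treated libraries, a difference of 0.73 ± 0.12 (adjusted p = 0.00484). Its paralog Ero1lb rose 1.27-fold from a mean of 3.83 FPKM, a call lost in 4 of 9 alternatives. Pdia3, the isomerase that works with the lectin chaperones, was lower on the deposited scale at means of 312.3 and 244.2 FPKM, and this call was lost in 5 of 10 alternatives, with an adjusted p of up to 0.221.

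Pdia4 had the highest FPKM of the 40 genes in every library and was not called. Its levels were 653.7 and 357.0 FPKM in controls and 645.1 and 691.9 FPKM in treated libraries. Control replicate 1 lay within the treated range and control replicate 2 far below it. Leaving out control replicate 1 turned it into a call (adjusted p = 0.00184), while over the other alternatives the adjusted p reached 0.729. Pdia6 lay between 103.2 and 123.0 FPKM in all libraries and was not called.

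The lectin chaperones calreticulin and calnexin, which hold new glycoproteins until they fold, both rose. Calr was at 348.8 and 274.0 FPKM in controls and 418.6 and 463.2 FPKM in treated libraries (0.51 ± 0.13, adjusted p = 0.0243). Canx was at 137.9 and 114.3 FPKM in controls and 152.5 and 161.3 FPKM in treated libraries (0.32 ± 0.11, adjusted p = 0.0465). For 83.1% of all genes tested the groups did not overlap. The groups did not overlap for either gene, but neither call held when a treated library was left out (adjusted p of 0.0824 and 0.138 for Calr, 0.14 and 0.211 for Canx) or when the filter on low values was dropped (adjusted p of 0.0617 and 0.104). That of Canx was also lost without control replicate 2 (adjusted p = 0.093) and with the replicate number as a block (adjusted p = 0.0509).

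Of the 10 HSP70 and HSP90 chaperones and partners, 1 was higher, 1 lower and 8 not called, so that 20% were called against 60.5% of all genes. BiP, encoded by Hspa5, is the main HSP70 of the ER and also keeps the stress sensors inactive. Hspa5 was at 290.9 and 203.6 FPKM in controls and 206.0 and 218.0 FPKM in treated libraries (-0.20 ± 0.18, adjusted p = 0.389). Both treated values lay between the controls. The exchange factor gene Hyou1, the J-domain genes Dnajb9 and Dnajc3, and Creld2, Manf and Hspa13 likewise overlapped between groups, as did Dnajb11, which was called higher only without control replicate 1 (adjusted p = 0.0106). Hspa5, Hyou1 and Creld2 were called lower only without control replicate 2 (adjusted p of 0.00873, 0.0369 and 0.0139). Without control replicate 1 their differences were 0.057, 0.17 and 0.068, above 0 and not called.

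Sdf2l1 and Hsp90b1 were the genes called among the HSP70 and HSP90 chaperones and partners. SDF2L1 works with BiP and its J-domain partner. Sdf2l1 was at 35.7 and 19.4 FPKM in controls and 54.5 and 52.9 FPKM in treated libraries, a 1.95-fold rise (1.00 ± 0.29, adjusted p = 0.0405). The treated values were close together and above both controls, which differed 1.85-fold, and leaving out a treated library or the filter on low values ended the call (adjusted p of 0.14, 0.124 and 0.0762). Hsp90b1, the HSP90 of the ER also called GRP94, was at 88.9 and 69.7 FPKM in controls and 48.7 and 58.6 FPKM in treated libraries (-0.55 ± 0.15, adjusted p = 0.0302). Its call was lost in 6 of 10 alternatives, among them those without control replicate 1 and without HDACi 4b replicate 1 or 2 (adjusted p of 0.0656, 0.15 and 0.0544).

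The controls themselves differed in the chaperone genes. Control replicate 1 was higher than control replicate 2 for 35 of the 40 genes, against 51.5% of all genes tested, and for all 12 genes with an ERSE or ERSE-II. On the log2 scale it was higher by at least 0.25 for 13 of the 40 genes and lower by as much for 2, where the shares among all genes were 10.1% and 8.06%. The widest ratios were 1.85 for Sdf2l1, 1.83 for Pdia4, 1.48 for Creld2, 1.43 for Hspa5 and 1.42 for Manf. By role, the median log2 difference between controls was 0.41 for the HSP70 and HSP90 group, 0.31 for the lectins, 0.21 for the disulfide enzymes and 0.11 for ER degradation. The treated libraries differed by 0.25 or more for 5 of the 40 genes, against 11.7% of all genes. Derl3 and Herpud1 were close between the controls, with ratios of 1.05 and 1.13.

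**Figure D4:**
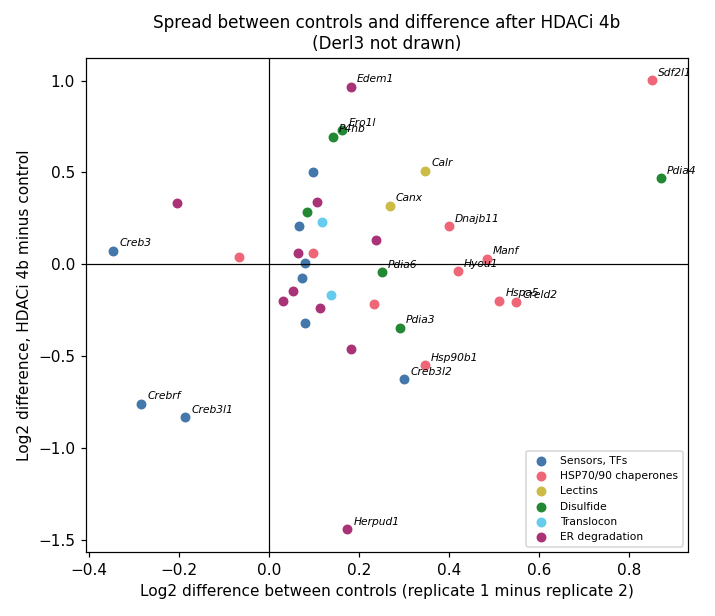
Each point is 1 gene, with the log2 difference between controls (replicate 1 minus replicate 2) on the x axis and the difference after HDACi 4b on the y axis. Derl3 (0.07, -4.38) is left out so that the others can be seen; Sdf2l1 and Pdia4 lie far right, where controls differed most, while Edem1 and Herpud1 lie near the middle. Both axes use the control values, so their relation is not read.

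Other transcripts separated the controls too, and their part in the chaperone differences was not tested. The summed FPKM of the stromal markers was 42.1 in control replicate 1 and 85.1 in control replicate 2, that of smooth muscle markers 169.0 and 256.3, and that of leukocyte markers 67.8 and 105.8. GC markers summed to 1769 and 1644 FPKM in those libraries, most of it from Inha (1219 and 1260 FPKM). Single GC markers differed more, as Inhbb was at 41.4 and 6.57 FPKM and Hsd17b1 at 144.8 and 61.9 FPKM. Foxl2, Inha and Amhr2 were lower in control replicate 1 than in control replicate 2, and the other GC markers were higher.

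Of the sensors, Ern1 alone was called higher. It encodes IRE1, the kinase and endonuclease that splices Xbp1 mRNA. Ern1 was at 9.22 and 8.55 FPKM in controls and 13.3 and 12.7 FPKM in treated libraries, a 1.46-fold rise with groups well apart (0.50 ± 0.07, adjusted p = 0.0032). Its target Xbp1 had 64.4 and 60.8 FPKM in controls and 61.1 and 64.7 FPKM in treated libraries, with a difference of 0.01 ± 0.07 (adjusted p = 0.935). These values count all Xbp1 reads, spliced and unspliced. Eif2ak3, which encodes PERK, had means of 4.53 and 5.38 FPKM and Atf6 means of 13.7 and 12.9 FPKM, and neither was called on the deposited scale. Atf6b, the paralog of Atf6, was lower on that scale (-0.32 ± 0.07) and was not called when a treated library was left out (adjusted p of 0.0568 and 0.0772).

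Of the 3 membrane-bound CREB3 factors, Creb3l1 and Creb3l2 fell. These proteins are cut in the Golgi, like ATF6, to free a transcription factor that serves secretion. Creb3l1, known for its place in collagen-secreting cells, was at 28.3 and 32.3 FPKM in controls and 17.1 and 16.0 FPKM in treated libraries (-0.83 ± 0.09, adjusted p = 0.0011). Creb3l2 was at 25.5 and 20.5 FPKM in controls and 14.3 and 14.6 FPKM in treated libraries (-0.63 ± 0.11, adjusted p = 0.00635), and its call was lost without HDACi 4b replicate 1 (adjusted p = 0.0563). Crebrf, a nuclear factor that restrains CREB3, was at 3.51 and 4.49 FPKM in controls and 1.82 and 2.06 FPKM in treated libraries (-0.76 ± 0.13, adjusted p = 0.00511). The groups did not overlap for any of these genes, as was so for 83.1% of all genes tested. Creb3 itself, at 26.3 and 33.7 FPKM in controls and 30.7 and 32.0 FPKM in treated libraries, was called higher only without control replicate 2 (adjusted p = 0.0459).

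Treated libraries also had less RNA of several stromal and smooth muscle markers. In bulk RNA fewer cells of a type and less RNA per cell cannot be told apart. Summed stromal markers were 42.1 and 85.1 FPKM in controls and 13.4 and 22.6 FPKM in treated libraries, and smooth muscle markers were 169.0 and 256.3 FPKM against 26.3 and 45.9 FPKM. Acta2 made up most of the smooth muscle sum (162.1 and 245.1 FPKM in controls), and Col1a1, Col1a2 and Col3a1 most of the stromal sum. Below the filter, Dcn and Lum were lower too, Pdgfra was higher (means of 0.562 and 0.729 FPKM), and Des and Tagln overlapped between groups. The 3 tested genes of each list were lower, against 38.1% of all genes, but only Col3a1 and Acta2 were called in all 10 alternatives. Without HDACi 4b replicate 1, 1 gene of each list was called, and without control replicate 2, 1 stromal and 2 smooth muscle genes were. Leukocyte markers summed to 67.8 and 105.8 FPKM in controls and 57.3 and 49.1 FPKM in treated libraries, with 1 gene higher, 1 lower and 1 not called. Cd68 rose from a mean of 8.77 to 32.4 FPKM and Lyz2 fell from 73.9 to 19.0 FPKM. Below the filter, Adgre1 (means of 1.64 and 0.335 FPKM) and Csf1r (means of 0.912 and 0.216 FPKM) were lower after treatment. The leukocyte antigen gene Ptprc was lower too, at no more than 0.0835 FPKM in any library. Endothelial and theca markers were all below the filter, with sums of 1.17 to 1.79 FPKM and 0.182 to 0.402 FPKM. Oocyte markers summed to 3.26 and 0.888 FPKM in controls and 3.79 and 6.14 FPKM in treated libraries. Gdf9, the only one tested, was not called. Below the filter Zp2, Zp3, Bmp15, Ooep and Nlrp5 were higher after treatment, and Zp1 overlapped between groups. Of 10 tested GC markers 2 rose, 5 fell and 3 were not called, where 22.4% of all genes rose and 38.1% fell. The GC markers summed to 1769 and 1644 FPKM in controls and 703 and 834 FPKM in treated libraries. Most of this sum was Inha, at 1219 and 1260 FPKM in controls and 438 and 583 FPKM in treated libraries. The GC factor gene Foxl2 was at 61.4 and 74.2 FPKM in controls and 24.0 and 28.9 FPKM in treated libraries. Esr2 fell from a mean of 22.5 to 1.54 FPKM, Hsd17b1 from 103.3 to 14.6 FPKM and Inhba from 173.0 to 94.1 FPKM. The 2 GC markers that rose were Fshr, from a mean of 5.27 to 9.09 FPKM, and Nr5a2, from 35.3 to 53.1 FPKM. The aromatase gene Cyp19a1, a marker of mature GCs, did not exceed 0.592 FPKM in any library. The part of any other cell type in the falls of Derl3, Herpud1 and the CREB3 factors was not tested.

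The translocon genes moved little. Sec61b, a small subunit of the channel, rose from a mean of 66.3 to 77.9 FPKM (0.23 ± 0.07), a call lost in 4 of 10 alternatives, and Sec61a1, which forms the pore, lay between 29.1 and 35.5 FPKM and was not called.

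Among 91 other listed genes of ER protein handling, 90 were tested, and 12 rose, 31 fell and 47 were not called, with a median difference of -0.10 beside the -0.15 of all genes. After median-ratio scaling the split was 24 higher and 17 lower. Under that scaling 56.7% of all genes tested were called, and 51.6% of those calls were higher. Of 10 genes of the PERK branch and its factor ATF4, 7 were lower and 1 higher, with a median of -0.55, where 38.1% of all genes were lower and 22.4% higher. Without HDACi 4b replicate 1 the number lower was 4, as Ddit3, Ppp1r15b and Trib3 lost their calls (adjusted p of 0.0574, 0.0513 and 0.0883), and without HDACi 4b replicate 2 it was 5. Atf4 itself fell from 178.8 ± 13.7 to 87.4 ± 4.34 FPKM (SD, n = 2 per group; limma, adjusted p = 0.000522), Chac1, a glutathione-degrading enzyme, fell by 2.35 ± 0.25 on the log2 scale, and Atf3 rose by 0.68 ± 0.11. This list was lower in 5 and higher in 1 of 10 genes under median-ratio scaling.

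The remaining lists went both ways, where 22.4% of all genes tested rose and 38.1% fell. Of 10 proline isomerases and HSP70 partners, 1 rose and 4 fell. The 1 that rose was Fkbp11, a membrane-anchored isomerase, at 18.0 and 12.5 FPKM in controls and 54.2 and 53.3 FPKM in treated libraries, a 3.52-fold rise (1.77 ± 0.17, adjusted p = 0.00138), while Fkbp7 fell by 1.01 ± 0.11. Of 13 tested disulfide enzymes outside the 40, 1 rose and 5 fell, with Tmx2 higher by 0.65 ± 0.08 and Tmx1, a transmembrane thioredoxin, lower (-0.80 ± 0.09). Of 18 genes of N-glycan transfer and trimming, 4 rose and 4 fell, with the oligosaccharyltransferase subunit Krtcap2 at 0.72 ± 0.09 and the mannosidase Man1b1 at -0.57 ± 0.08. Of 22 tested genes of targeting and translocation, 3 rose, 4 fell and 15 were not called, with Sec11c, a catalytic subunit of the signal peptidase, at 0.48 ± 0.08 and Spcs3 of the same complex at -0.42 ± 0.07. Of 12 further degradation genes, 2 rose and 5 fell, the latter including the ubiquitin-conjugating enzyme Ube2j1 (-0.72 ± 0.07) and the p97 cofactor Ufd1 (-0.53 ± 0.08). For these lists in the same order, median-ratio scaling left 2, 2, 7, 6 and 4 genes higher and 1, 3, 2, 2 and 2 lower. It left 56.7% of all genes tested called, with 51.6% of those calls higher. Mbtps1, the Golgi protease that cuts ATF6 and the CREB3 factors, fell from a mean of 23.2 to 14.4 FPKM, and Rtcb, the ligase that joins the ends of spliced Xbp1 mRNA, from 58.4 to 41.6 FPKM (-0.65 ± 0.08 and -0.48 ± 0.08, adjusted p of 0.00144 and 0.00392).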

How the data were processed

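RNA-seq libraries (2 control, 2 HDACi 4b) were grouped and numbered by their titles. Attached protocol notes speak of tamoxifen and frozen ovaries, whereas titles and design speak of cultured wild-type GCs, and the latter were followed. The authors deposited 1 table of FPKM whose header names no unit. The unit was read from the values: for 21610 of 23895 genes with a GENCODE M21 union exon length (90.4%), multiplying by length and scaling to depth returned whole reads (to 0.001 reads) in each library, for totals of 15951875 to 17665107 reads, so that 1 read at 2 kb was worth 0.0283 to 0.0313 FPKM. Of the 40 members, 34 gave whole reads. Bowtie 0.12.2 and build mm8 are named in the submitters' processing notes. Whole reads were nonetheless returned by GENCODE M21 lengths, and how that goes with mm8 was not settled. Counter, strand and annotation: not given in the sources used here. Exons of 12 members overlap another gene in GENCODE M21, and such reads cannot be separated without strand.

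The 12054 genes whose mean reached 1 FPKM were fitted on log2(FPKM + 1), which understates changes of low genes, using limma 3.58.1 (R 4.3.3) without covariates, with a robust, intensity-trended variance prior and two-sided tests, and Benjamini-Hochberg adjustment over all genes fitted. The fit was also run on simulated data with few changed genes and a common spread for all genes. Those settings differ from these data, so the run does not show how reliable the calls are here. Fold changes are ratios of mean FPKM. With 2 against 2 libraries an exact permutation test cannot go below 0.333, so calls rest on the spread limma shares across genes. Members and lists were chosen with earlier results of these data known. Values in every library are given for called members with a log2 difference of at least 0.5 in size (12 genes) and for genes beside which they are read, and up to 2 called genes per direction are named from each other list. Alternatives were a pseudocount of 0.1, no filter, a mean of at least 5 FPKM, a replicate block, each library left out in turn, median-ratio scaling, and limma-voom on the recovered counts (10 or more in 2 libraries). Promoter windows came from RefSeq, matched by symbol. Figures were drawn with matplotlib 3.10.9.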

Additional observations from a re-analysis of the deposited data

How the results depend on the processing

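Of the 40 genes, no call changed direction under any of the 10 alternatives. Without a filter 12 were called in place of 21, and 5 in place of 11 were higher. Leaving out 1 library gave 8 to 22 called, 4 to 12 higher and 4 to 13 lower, with 8 called without HDACi 4b replicate 1 and 10 without HDACi 4b replicate 2. Under median-ratio scaling 6 were lower in place of 10. The count past a log2 difference of 1 was 3, with 2 without a filter, without control replicate 2 and without either treated library, and 4 to 5 without control replicate 1, with a pseudocount of 0.1, under median-ratio scaling and with limma-voom (5). Of the other pathway genes 43 were called, and 21 to 40 without 1 library, with 6 to 14 higher and 15 to 29 lower. Under median-ratio scaling 24 were higher in place of 12 and 17 lower in place of 31. The causes were not tested, beyond the fewer libraries or other genes each alternative holds.

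Genes not called that changed sign did so under median-ratio scaling for Atf6 (0.077), Hyou1 (0.12), Pdia6 (0.12) and Vcp (0.021). Over the fits without 1 library the differences ran from -0.033 to 0.048 for Xbp1, -0.10 to 0.25 for Creb3, -0.46 to 0.057 for Hspa5, -0.024 to 0.10 for Hspa13, -0.25 to 0.17 for Hyou1, -0.21 to 0.27 for Manf, -0.48 to 0.068 for Creld2 and -0.17 to 0.083 for Pdia6.

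Same-numbered libraries deviated with a correlation of 0.0877 across genes, from 2 pairs, which does not settle whether they share a culture or a day, and they were treated as unpaired. With the replicate block 19 of the 40 genes were called in place of 21, without Hsp90b1 and Canx (adjusted p of 0.0654 and 0.0509). Depth limited low genes most, as 1 read at 2 kb was worth up to 0.0313 FPKM.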
